A study of Mus musculus with 62 samples.

Results

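Among the 16 hippocampus libraries labelled Ts65Dn;Brwd1+/-, 3 carried the genes that are triplicated in Ts65Dn at the euploid level: T35 and B138, labelled male, and B136, labelled female. They were chosen by that reading, out of 47 hippocampus libraries and 62 libraries in the series, and they were compared with 15 euploid libraries (8 male, 7 female). The questions were whether Brwd1 lay below the euploid level in these 3 libraries and what else differed. The chosen libraries keep their deposited label throughout, and the DNA of the animals was not analysed here.

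The animals of the hippocampus libraries were all 6 weeks old, on a mixed DBA/2J x B6EiC3Sn/J background. The other libraries of the series are from forebrain of late embryos and are used further below to choose a set of genes. Ts65Dn females, which carry an extra chromosome made of parts of chromosomes 16 and 17, were mated to males heterozygous for the repro5 mutation of Brwd1. The methods list euploid, Brwd1+/-, Ts65Dn and Ts65Dn;Brwd1+/- offspring from this mating. The hippocampus labels used here comprise euploid, Ts65Dn and Ts65Dn;Brwd1+/- animals, with no library labelled Brwd1+/-. The euploid controls carry neither alteration as labelled. The labels do not say which animals were littermates, and p-values measure the spread between these animals.

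BRWD1 is a protein with a pair of bromodomains and WD repeats that binds acetylated and methylated histones. It is known as a chromatin regulator in lymphocyte and germ cell development, and its gene lies in the region of chromosome 16 that is triplicated in Ts65Dn. In a segmental trisomy most genes of the segment are transcribed in rough proportion to their copies, so the median level of the segment serves as a reading of its dosage.

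The sex labels of the 3 libraries matched their transcripts. Xist, the RNA that coats the inactive X chromosome, was at 9.77 log2 CPM (log2 of CPM, the counts scaled to library size) in B136 and at -1.33 and -0.62 in T35 and B138. Ddx3y, a Y-linked helicase gene, was at -3.62 in B136 and at 5.78 and 5.80 in T35 and B138. The female euploid library B85 carried the transcripts of a male and was left out of the controls. Library totals were 38.4 to 53.6 M reads in the 3 chosen libraries, 38.5 to 137.1 M in the 15 euploid libraries and 35.6 to 124.3 M in the 13 other Ts65Dn;Brwd1+/- libraries. No pair of the 18 compared libraries agreed within sampling noise (chi-square per degree of freedom of at least 16). Markers of the hippocampus were present in all 3 chosen libraries, with Prox1, the dentate granule neuron factor, at 5.70 to 6.15 log2 CPM and Wfs1, a marker of CA1 pyramidal neurons, at 7.30 to 7.97.

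The segments, taken here as chromosome 16 beyond Mrpl39 and chromosome 17 up to Pde10a, held 135 genes that passed the filter on low counts, 92 and 43 on the respective chromosomes. The median log2 ratio of the 134 genes other than Brwd1 to the euploid mean of the same sex label was -0.01 in B136, 0.04 in T35 and 0.04 in B138. The 15 euploid libraries ranged from -0.05 to 0.07 with a median of 0.01, and the other 13 Ts65Dn;Brwd1+/- libraries ranged from 0.51 to 0.62 with a median of 0.57. No library with the same label lay between these ranges, so the chosen libraries sat inside the euploid range and the nearest library with their label was at 0.51. The library labelled male Ts65Dn B145 also lay at the euploid level, with a median of 0.02, and is not among the 3. These medians chose the libraries and were not tested.

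**Figure D1:**
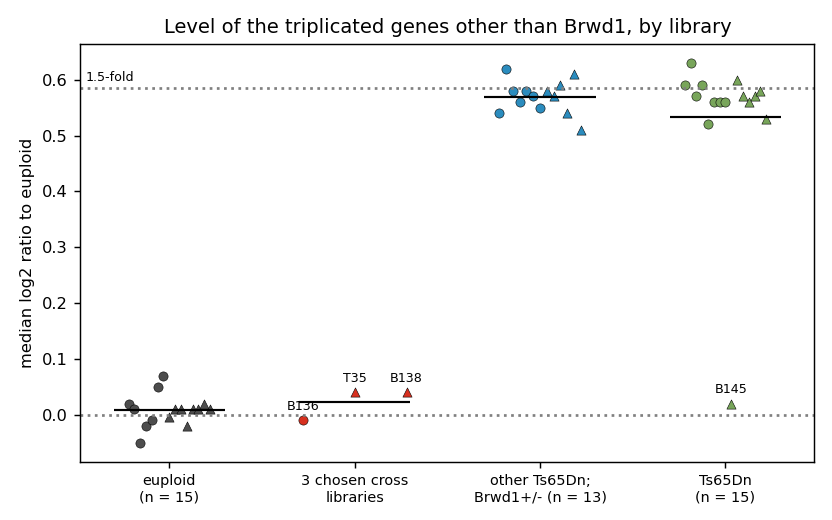
Median log2 ratio of 134 triplicated genes other than Brwd1 to the euploid mean of the same sex label (y axis), one point per hippocampus library (triangles, male label; circles, female label), with a line at the group mean. The 3 chosen libraries lie between -0.01 and 0.04, within the euploid range of -0.05 to 0.07, and the other 13 Ts65Dn;Brwd1+/- libraries lie at 0.51 and above; the dotted lines mark the euploid level and a 1.5-fold level.

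The same held on both chromosomes. On chromosome 16 the chosen libraries had medians of -0.03 to 0.04 and the other cross libraries 0.50 to 0.61, while on chromosome 17 these were 0.02 to 0.05 and 0.51 to 0.63. In B136, T35 and B138, 7.46%, 13.4% and 10.4% of the 134 segment genes lay above the highest euploid library of the same sex label, beside 8.58%, 11% and 9.59% of the 17236 genes tested outside the segments. In the other 13 cross libraries 62.7% to 79.1% of the segment genes did so. Of the 134 genes, 57 had a mean log2 ratio below 0 over the 3 libraries.

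Single segment genes followed the median. Dyrk1a, a protein kinase gene studied for its dosage in Down syndrome, was at 6.33, 6.41 and 6.42 log2 CPM in B136, T35 and B138. These lay within the euploid range of both sexes together (6.13 to 6.57) and below the other cross libraries (6.66 to 7.08). Within the male label, T35 and B138 lay just below the euploid range of 6.44 to 6.57. App, which encodes the amyloid precursor protein, was at 10.93, 11.01 and 10.99, against 10.76 to 10.98 in euploid and 11.41 to 11.63 in the other cross libraries. T35 and B138 lay just above the highest euploid library. Sod1, the cytosolic superoxide dismutase, was at 6.87, 6.85 and 6.74 in the 3 libraries, between the euploid extremes of 6.67 and 7.48. Olig1, a transcription factor of the oligodendrocyte lineage, was at 7.05, 7.56 and 7.24. Of these, T35 exceeded the euploid maximum of 7.47 and B136 and B138 lay within the euploid range.

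Brwd1 (Entrez 93871, chromosome 16, 95992089 to 96082703 on mm10) was near or below the middle of the euploid libraries, and whether the difference passed an unadjusted test depended on the fit. Its level was 6.58 log2 CPM in B136, 6.79 in T35 and 6.50 in B138. The male euploid libraries ran from 6.60 to 6.99 with a median of 6.74, and the female euploid libraries from 6.26 to 7.12 with a median of 6.89. B138 lay below all 8 male euploid libraries, T35 lay above their median, and B136 lay below 6 of the 7 female euploid libraries and above B125. The 3 libraries had a mean of 6.62 ± 0.15 (SD, n = 3) and the euploid libraries 6.80 ± 0.21 (SD, n = 15).

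Leaving Brwd1 in or out of the segment median selected the same 3 libraries, so its level could be tested. The log2 fold change against euploid was -0.17 (SE 0.12) with sex label as a block, and edgeR's quasi-likelihood test gave an unadjusted p of 0.18 and a Benjamini-Hochberg adjusted p of 1.0. With 1, 2 and 3 factors of unwanted variation in the fit the log2 fold change was -0.15 to -0.17, with edgeR unadjusted p of 0.0246, 0.00855 and 0.00519 and adjusted p of 0.997, 0.582 and 0.328. The factors came from residuals of a fit that already held the groups, so they narrowed the spread (SE 0.05 to 0.06). Genes outside the segments at an unadjusted edgeR p under 0.05 rose with them, from 503 to 777, 1074 and 1471. The smaller p is therefore not particular to Brwd1. Without such factors the estimate corresponds to 88.7% of the euploid level with a 95% confidence interval of 74.1% to 106%. No library was labelled Brwd1+/-, so the Brwd1 level that this genotype gives was not measured here. An exact permutation test of the log2 CPM over the 360 exchanges of labels within sex gave a difference of -0.16 and a 2-sided p of 0.20, where the smallest p it can give is 0.00278.

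The permutation p for Brwd1 depended on the female euploid library B125, which had the lowest Brwd1 level of the controls. Without it the difference was -0.20 with an exact permutation p of 0.0413, and edgeR's unadjusted p was 0.0322 with an adjusted p of 0.993. The estimate also moved with the members, from -0.28 without T35 to -0.10 without B136, with edgeR adjusted p of 1.0 in both. Within the male label alone, 2 libraries against 8, the difference was -0.11 with an exact permutation p of 0.311, and the female label holds a single chosen library.

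Set against the other triplicated genes of its own library, Brwd1 was at -0.25 in B136, -0.01 in T35 and -0.29 in B138, on a log2 scale where 0 is the euploid mean. The euploid libraries ranged from -0.60 to 0.30 with a median of 0.00. The mean difference was -0.18, with a 2-sided exact permutation p of 0.172 over the same 360 exchanges. Without B125 it was -0.21 and p was 0.0381. The other 13 Ts65Dn;Brwd1+/- libraries ranged from -0.59 to -0.09 on this scale with a median of -0.17, and the 14 Ts65Dn libraries other than B145 from -0.30 to 0.15 with a median of -0.04. These groups share the euploid controls, so the values stand side by side. B145 was at 0.16.

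**Figure D2:**
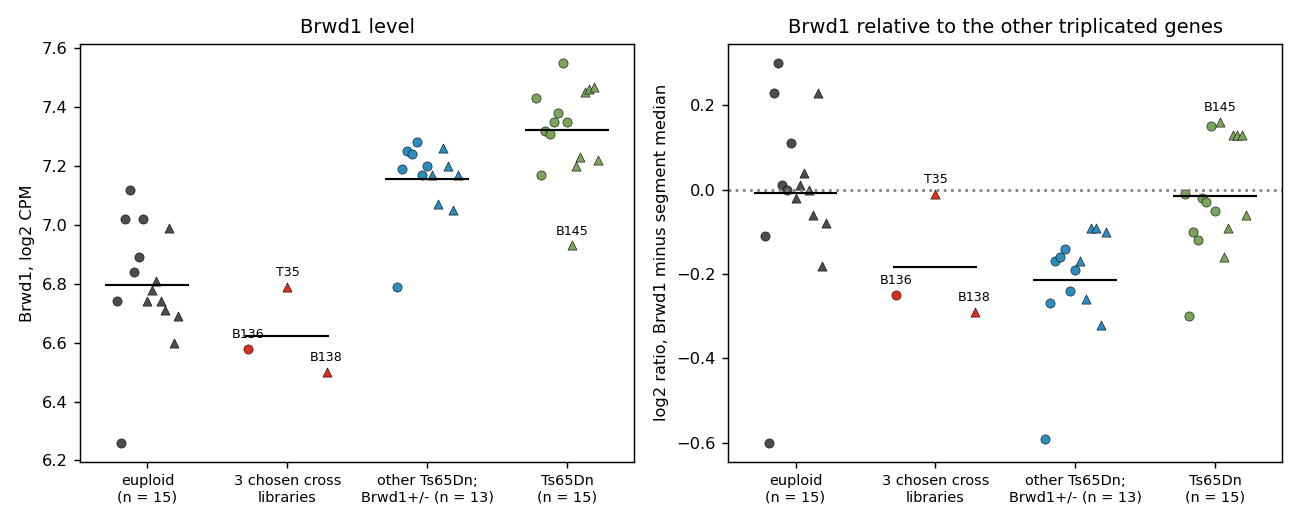
Brwd1 in log2 CPM (left y axis) and as log2 ratio to the euploid mean minus the median of the other triplicated genes of the library (right y axis), one point per hippocampus library, with a line at the group mean. In the left panel the 3 chosen libraries, at 6.50 to 6.79, lie among the euploid libraries (6.26 to 7.12) and no higher than 6.79, the lowest value of the other cross libraries. In the right panel B136 and B138 lie at -0.25 and -0.29 and T35 at -0.01.

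Neighbouring genes were read to see whether the level of Brwd1 was shared along the chromosome. Within 1 Mb of Brwd1, 13 other genes passed the filter, and the mean log2 ratio of the 3 libraries was below 0 for 9 and above 0 for 4. Psmg1, a proteasome assembly chaperone just beside Brwd1, had ratios of -0.10, 0.22 and 0.14 in B136, T35 and B138. Hmgn1, a nucleosome-binding protein on the other side, had ratios of -0.12, 0.09 and 0.00. Pcp4, farther along, had ratios of -0.50, 0.01 and -0.29, beside -0.26, 0.03 and -0.25 for Brwd1. Ets2 (-0.12, -0.04 and -0.14) and Dscam (-0.08, -0.05 and -0.20) were below 0 in all 3 libraries. Sh3bgr had the lowest mean ratio, at -0.17, -0.64 and -0.88, and was expressed at no more than 0.84 log2 CPM in these libraries. Itgb2l stood at the other end, with ratios of 1.77, 3.16 and 3.12, and rested on 9 to 12 counts a library. By mean ratio Brwd1 ranked 20 of the 135 segment genes from the lowest in the 3 libraries and 19 in the other 13 cross libraries. In the Ts65Dn libraries other than B145 it ranked 62.

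The level of Brwd1 moved with markers of dentate granule neurons, the principal cells of the dentate gyrus, from library to library. Across the 18 libraries, with sex means removed, the genes most like Brwd1 were Prox1, Sema5a and Gabpb2 (Pearson's r of 0.94 each) and Dock10 and Dtna (0.93 each). Prox1 is a defining factor of dentate granule neurons and Dock10 is also among the markers listed for them. The points share library and depth, and B125, with Prox1 at 4.19 log2 CPM, is the lowest of them; without it r was 0.90 for Prox1 and 0.86 for Dock10. The summed dentate markers were at 9.16, 9.52 and 9.14 log2 CPM in B136, T35 and B138, against 8.77 to 10.10 in the euploid libraries with a median of 9.51. Within its sex label B138 lay below every euploid library, the lowest male one being at 9.26, and B136 and T35 lay within the range. T35, the library with the highest Brwd1 of the 3, was also the one at the euploid median of these markers.

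With the summed dentate markers as a covariate, chosen after the data were seen, the log2 fold change of Brwd1 was -0.02 (SE 0.06, unadjusted edgeR p of 0.783). The summed markers include Prox1 and Dock10, named above as most like Brwd1 in the same libraries, so this fit is not independent of that correlation. It was not repeated without B125, the lowest control for both, and a cause was not tested. All 10 dentate granule neuron markers had log2 fold changes below 0 in the 3 libraries, with a median of -0.29, and edgeR called none without factors of unwanted variation. With 3 such factors it called Stxbp6 of this list (log2 fold change -0.28, adjusted p of 0.0979). The other 13 cross libraries, against the same controls, also had all 10 markers below 0, with a median of -0.28 and 6 at an unadjusted p under 0.05. Between the 3 and the 13 libraries the median was -0.03 with 0 called by edgeR and 0 at an unadjusted p under 0.05. In bulk tissue fewer cells of a type and less RNA per cell cannot be told apart.

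**Figure D3:**
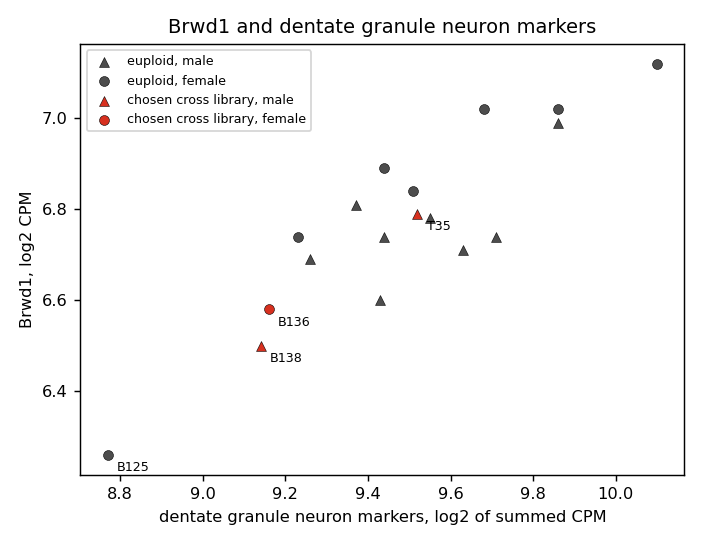
Brwd1 in log2 CPM (y axis) against the log2 of the summed CPM of 10 dentate granule neuron markers (x axis) in the 18 libraries of the comparison, triangles for the male and circles for the female label. B136 and B138 lie at the low end of both axes, above B125 (8.77 and 6.26), and T35 lies among the euploid libraries.

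EdgeR called no gene outside the segments between the 3 libraries and euploid. Of 17236 genes tested with edgeR's quasi-likelihood test, 0 (0.0%) had an adjusted p under 0.1, in either direction, and 503 (2.92%) had an unadjusted p under 0.05, 215 with a higher and 288 with a lower level. The smallest adjusted p was 1.0. DESeq2 with the same design called 7 genes, 1 higher and 6 lower, and edgeR with 3 factors of unwanted variation called 5. The median standard error of a log2 fold change was 0.13. A separate test of whether the differences depended on sex label called 0 of 17236 genes (0.0%), with 417 (2.42%) at an unadjusted p under 0.05, and the female arm of it is 1 library.

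The genes with the smallest p in each direction, none of which edgeR called in the fit above, are given as values. DESeq2 called Mmut, Cdhr1, H2-D1, Cyp11a1 and Entrez 100504674 among them, with adjusted p of 0.055 to 0.0808. Mmut, the mitochondrial methylmalonyl-CoA mutase, was at 5.94, 5.83 and 5.91 log2 CPM in B136, T35 and B138 and at 5.29 to 5.81 in euploid (median 5.53). All 3 libraries lay above every euploid library, by a log2 fold change of 0.36 (SE 0.08) with an unadjusted p of 0.000176 and an adjusted p of 1.0. Mst1r, a receptor tyrosine kinase gene, was at 2.35, 1.93 and 2.09 against 0.63 to 1.87 (median 1.5), a log2 fold change of 0.69 (SE 0.17). After centring on sex the groups also did not overlap for Mob4, a component of a phosphatase complex, and Clec5a, a lectin receptor of myeloid cells (log2 fold changes 0.19 and 0.60). The remaining genes of the upper set were Stmnd1, Fosb, Egr2, Gas5, Vps50 and Egr4, with log2 fold changes of 0.18 (Vps50) to 1.64 (Egr2) and overlapping groups. In the other 13 cross libraries against the same controls, edgeR called Mst1r higher (log2 fold change 0.41, adjusted p of 0.0767). It also called Mob4 (0.12, 0.0125) and Vps50 (0.12, 0.0163) higher there, and no other gene of the upper set. Between the 3 and the 13 libraries edgeR called no gene of the upper set.

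Of the genes with a lower level, Cdhr1, a cadherin known from photoreceptors, was at 3.11, 3.24 and 3.29 log2 CPM in the 3 libraries and at 3.39 to 4.41 in euploid with a median of 3.92. The groups did not overlap, and the log2 fold change was -0.70 (SE 0.16, unadjusted p of 0.000457, adjusted p of 1.0). Pde1b, a calmodulin-dependent phosphodiesterase, was at 7.10, 6.97 and 6.93 against 7.07 to 7.44, a log2 fold change of -0.28 (SE 0.07). Its groups did not overlap once centred on sex. Acaa1a, a peroxisomal thiolase, was at 4.2, 4.29 and 4.16 against 4.37 to 5.23 (log2 fold change -0.58, SE 0.14).

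H2-D1, a class I histocompatibility gene, varied more widely. It was at 1.89, 1.61 and 1.5 log2 CPM in B136, T35 and B138, at 1.64 to 3.73 in the female and 3.53 to 5.05 in the male euploid libraries. The 2 male libraries thus lay below all male controls and B136 lay within the female range. Genes of this family have near-identical copies, so reads may be split between them and the level is uncertain. Cyp11a1, the enzyme that starts steroid synthesis from cholesterol, was at -4.13, -1.77 and -0.22 against 0.07 to 1.85, a difference of -2.17 (SE 0.58) that rested on 2, 11 and 45 counts. EdgeR called Cyp11a1 lower in the other 13 cross libraries too, against the same controls (log2 fold change -1.14, adjusted p of 0.0772). AA388235, named after its values were seen because DESeq2 called it, had 0 counts in all 3 libraries, 0 to 256 in euploid with 3 of 15 at 0, and 0 to 149 in the other cross libraries with 6 of 13 at 0. A level of 0 therefore occurred in both of the other groups.

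Counted over all genes with levels centred on sex, 18 (0.104%) had the 3 libraries above all 15 euploid libraries and 20 (0.116%) had them below. Fosb, Egr2 and Egr4 of the set above belong to the immediate early genes, which are taken up next.

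**Figure D4:**
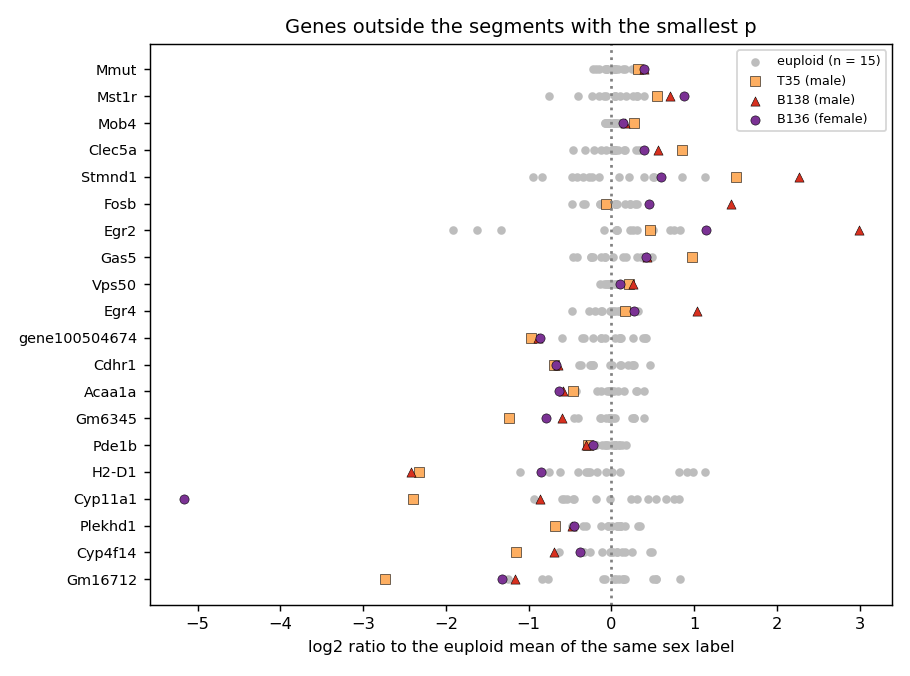
Log2 ratio to the euploid mean of the same sex label (x axis) for the 10 genes with the smallest p in each direction outside the segments (y axis), higher genes on top; grey points are the 15 euploid libraries and coloured points T35, B138 and B136. EdgeR called none and DESeq2 called 5; Mmut and Mst1r lie to the right of every euploid library in all 3 libraries and Cdhr1 to the left, whereas H2-D1 and Cyp11a1 spread widely.

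Immediate early genes, which neurons induce within minutes of activity, stood higher in B136 and B138 and not in T35. Of the 20 genes listed, 19 had log2 fold changes above 0 with a median of 0.42, beside -0.01 over all genes tested outside the segments. EdgeR called none, and 8 had an unadjusted p under 0.05. The summed level was 10.88 log2 CPM in B136, 10.39 in T35 and 11.09 in B138, against 9.96 to 10.69 in euploid (median 10.51). In B138 13 of the 20 genes exceeded every male euploid library and in B136 11 exceeded every female one, while in T35 0 did so and Jun lay below the range. Over all genes tested outside the segments 9.59% exceeded the range in B138, 8.58% in B136 and 11% in T35. Among the 13 other cross libraries the highest median log2 ratio of the 20 genes to the euploid mean was 0.48, in B175, with 20 above 0. B136 also had 0.48, with 18 above 0, and B138 had 0.66, with 19. By this median the level of B136 was thus also reached outside the 3 libraries, and that of B138 was not.

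Fos, the prototype of the group, was at 5.36, 4.25 and 5.81 log2 CPM in B136, T35 and B138, with euploid libraries at 2.66 to 4.78 (median 4.31). Egr2, a zinc finger factor, was at 3.17, 1.45 and 3.97 against -0.94 to 2.73. Fosb was at 4.14, 3.41 and 4.92 against 3.13 to 3.91, and Arc, a regulator of synaptic receptor traffic, at 8.21, 7.23 and 8.50 against 6.19 to 8.0. For each of these B136 and B138 exceeded all 15 euploid libraries and T35 lay within their range. The other cross libraries reached 4.98 for Fos, 3.13 for Egr2 and 3.96 for Fosb, below B136 and B138. For Arc they reached 8.53, above both. B85, left out of the controls, lay above B136 for all 4, with Fos at 5.62, Egr2 at 3.23, Fosb at 4.36 and Arc at 8.24. It is not a further control, since other genes also set it apart from the euploid libraries. Its levels were 6.6 for Cdhr1 (euploid 3.39 to 4.41), 6.93 for Dcx (3.87 to 4.93) and 9.59 for Gad1 (8.19 to 8.55), while Prox1 was within the range. The reason was not tested. Among the 20 genes Jun went the other way, at 7.16, 6.85 and 7.07 in B136, T35 and B138 against 6.82 to 7.45 in euploid. Without B138 the median log2 fold change of the 20 genes was 0.23 and 0 of them had an unadjusted p under 0.05, and without T35 the median was 0.62 with 10.

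**Figure D5:**
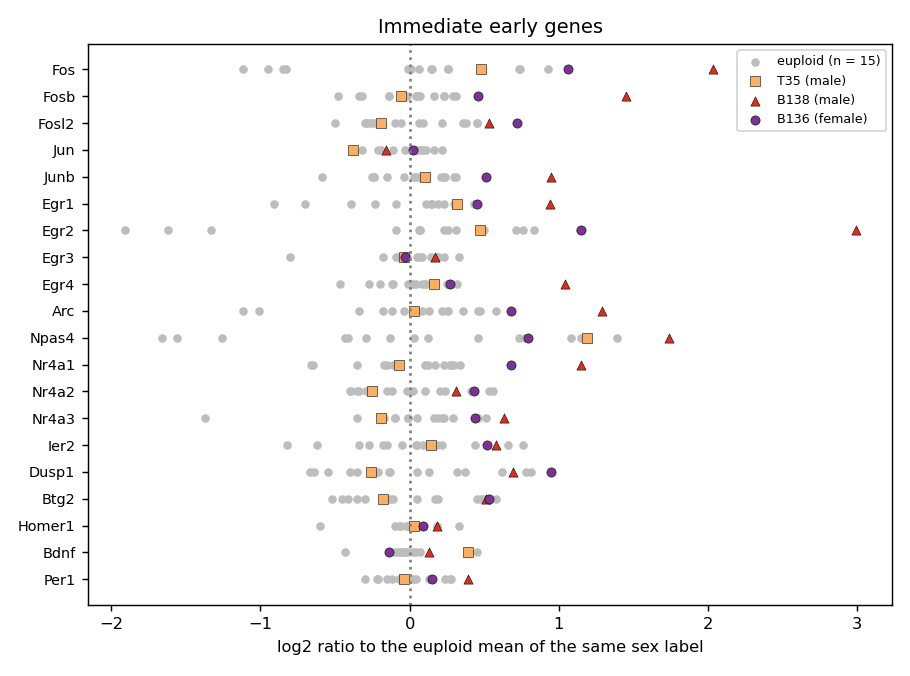
Log2 ratio to the euploid mean of the same sex label (x axis) for 20 immediate early genes (y axis); grey points are the 15 euploid libraries, squares T35, triangles B138 and circles B136. B138 lies above every male and B136 above every female euploid library for 13 and 11 of the genes, with Egr2 of B138 at 2.99, and T35 lies among the euploid libraries except for Jun, where it is lower (-0.38).

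Markers of other cells the dissection could hold were compared in the same way, and edgeR, without factors of unwanted variation, called no marker of the 16 lists. Choroid plexus markers had the widest spread. Their summed level was 12.56, 12.16 and 11.71 log2 CPM in B136, T35 and B138 and 7.91 to 13.27 in euploid (median 11.22), with all 15 genes above 0 and a median log2 fold change of 0.55. Ttr, the transthyretin gene that marks this tissue, was at 11.77, 11.39 and 10.81 against 4.51 to 12.49. With these markers as a covariate the log2 fold change of Brwd1 was -0.11 (SE 0.12) and 0 genes outside the segments were called by edgeR, with 559 at an unadjusted p under 0.05.

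Oligodendrocyte markers were highest in T35. The mature oligodendrocyte and myelin list was at 12.31, 12.89 and 12.64 log2 CPM in B136, T35 and B138 against 11.65 to 12.81, with 14 of 16 genes above 0 and a median of 0.12, and the precursor list (7 of 8 above 0, median 0.08) was also above the male euploid range in T35. Ependymal markers (7 of 8 above 0, median 0.15), microglia (11 of 16, 0.06), pericytes and meningeal fibroblasts (8 of 12, 0.11), GABAergic interneurons (7 of 14, 0.01), CA1 pyramidal neurons (8 of 9, 0.12) and CA2 and CA3 pyramidal neurons (6 of 10, 0.02) leaned up or were balanced. Astrocytes (12 of 15 below 0, median -0.05), endothelial cells (10 of 12, -0.09) and red blood cells (4 of 4, -0.36) leaned down. Among neighbouring brain regions, thalamus and habenula markers were below 0 for 12 of 12 genes with a median of -0.42, neocortex markers for 9 of 10 with -0.18, and striatum markers for 4 of 9 with 0.03. The summed thalamus and habenula level was 7.50, 7.31 and 7.60 against 7.40 to 8.58, so T35 lay under the euploid range. The part of these cells in the values of other genes was not tested beyond the covariates given.

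The other members of the BRWD family lay within the euploid range. Phip was at 6.05, 6.01 and 5.91 log2 CPM in B136, T35 and B138, against 4.83 to 6.13 in euploid, and Brwd3 at 3.75, 3.65 and 3.50 against 1.75 to 4.12. Subunits of the BAF chromatin remodelling complex were below 0 for 20 of 27 genes with a median of -0.04 and 0 edgeR calls. Smarca2, one of its ATPases, had a log2 fold change of -0.15 (SE 0.07) and Smarca4 of -0.02 (SE 0.07).

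Lists of synaptic and signalling genes held no edgeR call in the 3 libraries. The AMPA, NMDA and kainate receptors were below 0 for 8 of 15 genes (median -0.02), the GABA-A receptors for 9 of 14 (-0.04) and the kinases and phosphatases of long-term potentiation for 27 of 36 (-0.05). Gabrd, the delta subunit of extrasynaptic GABA-A receptors, had the lowest unadjusted p of these at 0.0125, with a log2 fold change of -0.39. Neuronal differentiation and axon growth genes were below 0 for 15 of 25 (-0.04), interferon stimulated genes for 14 of 22 (-0.18), circadian clock genes for 7 of 17 (0.01) and genes known to differ between inbred strains for 4 of 13 (0.05). Glucocorticoid responsive genes were above 0 for 15 of 16 with a median of 0.11. Of these Sgk1, a kinase, was at 6.82, 6.45 and 7.02 log2 CPM in B136, T35 and B138 against 5.75 to 6.79 in euploid, so that B136 and B138, the libraries with the higher immediate early genes, were again above the range. The other cross libraries ran from 6.00 to 6.91 for Sgk1.

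Genes of the general machinery stayed near 0: ribosomal proteins were below 0 for 56 of 77 (median -0.04), mitochondrial ribosomal proteins for 40 of 74 (-0.01) and nuclear oxidative phosphorylation subunits for 35 of 79 (0.01). Rps2 had the lowest p among the ribosomal proteins, at 3.87, 4.08 and 4.16 log2 CPM against 3.97 to 5.70, and shares reads with near-identical copies.

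Genes outside the segments that differ in trisomy at another age were then read in these libraries. In forebrain of late embryos, edgeR called 98 genes higher (0.603%) and 40 lower (0.246%) in Ts65Dn than in euploid, among 16262 tested outside the segments. In the 3 libraries against euploid hippocampus, 50 of 97 of the higher genes were above 0 (median 0.00) and 21 of 39 of the lower genes were below 0 (median -0.01), with 0 called and 1 at an unadjusted p under 0.05. In the other 13 cross libraries against the same controls, 55 of 96 of the higher genes were above 0 (median 0.04) and 34 of 39 of the lower genes were below 0 (median -0.14), with 5 called higher and 1 lower of the former and 11 lower of the latter. In that fit 307 genes (1.87%) were called higher and 259 (1.58%) lower of 16425 tested outside the segments. The sizes of the groups differ (3 and 13), so the counts of calls are not comparable between the fits.

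The 3 libraries were also set against the 13 with the same label. Both groups were separated by the segment median, so what follows describes the selection and nothing is read from the counts. Outside the segments edgeR called 11 genes higher (0.0648%) and 15 lower (0.0883%) of 16982 tested, and without B136, the only female member, it called 7 in all. Rfx5, a regulator of class II histocompatibility genes, was at 4.24, 3.97 and 3.96 log2 CPM in B136, T35 and B138, within the euploid range of 3.89 to 4.41 and above the other cross libraries at 3.34 to 3.74. Its log2 fold change was 0.47 (SE 0.08) against the other cross libraries and -0.09 (SE 0.09) against euploid. Vsig2, an immunoglobulin-domain gene, was at 2.80, 2.87 and 2.73, with euploid at 2.47 to 3.08 and the other cross libraries at 3.08 to 3.81.

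Selenov, a selenoprotein gene, was at -1.10, -0.50 and -0.36, inside the euploid range of -2.43 to 0.46 and under the other cross libraries at 0.42 to 1.52. Dhx37, an RNA helicase gene, was at 4.46, 4.37 and 4.33, above the other cross libraries at 3.85 to 4.31. For these genes the 3 libraries lay with the euploid group. A730009L09Rik, at 84515012 to 84526387 on chromosome 16, just before the boundary at Mrpl39 used here (84718281), was at -1.43, -2.60 and -1.24 in the 3 libraries, -3.38 to -0.98 in euploid and -0.17 to 1.18 in the other cross libraries. Mpc1-ps, a pseudogene of the segment gene Mpc1, was at 3.14, 3.25 and 3.33 against 3.50 to 4.09 in the other cross libraries and may share reads with Mpc1.

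Cdhr1 lay below all euploid and all other cross libraries. It was lower in the 3 libraries than in the other 13 by a log2 fold change of -0.71 (SE 0.14), next to -0.70 against euploid and 0.04 for the 13 against euploid. Clustered protocadherins Pcdhga2, Pcdhb3 and Pcdhb4, cell adhesion genes of neurons, were higher than in the other cross libraries by 0.84, 0.78 and 0.93, with log2 fold changes of 0.27, 0.34 and 0.37 against euploid, where the groups overlapped. The 13 other cross libraries were called lower than euploid for these genes, by log2 fold changes of -0.56, -0.39 and -0.59. Kit, the receptor of stem cell factor, was at 6.95, 6.80 and 6.93 log2 CPM, with euploid at 5.78 to 6.82 and the other cross libraries at 6.38 to 6.80.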

How the data were processed

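RNA-seq of 6-week hippocampus (47 libraries) and embryonic forebrain (15) was used. The authors mapped single reads to mm10 with HISAT2 and assigned them to genes by featureCounts 2.0.1; the deposited values are raw counts per gene for 27179 Entrez identifiers. The submitters' notes give HISAT2 2.1.0. Library preparation did not mark strand, so overlapping antisense genes share reads. Positions came from RefSeq for 25275 genes; segment bounds are a choice from general knowledge.

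The tests used edgeR 4.0.16 under R 4.3.3 (TMM, filterByExpr with a minimum count of 10, robust quasi-likelihood, sex label as block) and Benjamini-Hochberg adjustment over all genes tested, called at 0.1. DESeq2 1.42.0 was an alternative. Log2 CPM used a prior count of 0.5. The test was checked on simulated data. Members and lists were chosen with earlier results of these data known. Named genes are Brwd1, genes within 1 Mb of it, Dyrk1a, App, Sod1, Olig1, the 10 smallest p in each direction outside the segments (taken among all tested since fewer than 10 were called), called and first genes of the lists, and the 5 most like Brwd1. Genes outside this rule were named after their values were seen.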

Additional observations from a re-analysis of the deposited data

Results flagged for a closer look

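Each of 48 groups of 6 to 8 libraries was searched for a library far from the others, for Brwd1, the segment median and the 20 named genes outside the segments; chance flags about 1 in 20 groups, and 3 were found. Brwd1 in the female Ts65Dn;Brwd1+/- library B176, one of the 13 not chosen, was at 6.79 log2 CPM, with the next library at 7.17. Egr2 in the female euploid library B125 was at 0.69 log2 CPM, with the next at 1.93, and this library also had the lowest Brwd1 and Prox1 of the controls. H2-D1 in the male euploid library B139 was at 5.05 log2 CPM, with the next at 4.02.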

How the results depend on the processing

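The count of genes called outside the segments between the 3 libraries and euploid was 0 under 29 of 31 alternatives; DESeq2 called 7 (Prl, Cyp11a1, AA388235, Mmut, Cdhr1, H2-D1 and Entrez 100504674) and 3 factors of unwanted variation 5 (among them Fam163b, Plk5, Stxbp6 and Ablim3), and the cause was not tested. Over the 18 fits that left out 1 library, the genes at an unadjusted p under 0.05 numbered 387 to 751. With 1, 2 and 3 factors of unwanted variation they numbered 777, 1074 and 1471, beside 503 without. The log2 fold change of Brwd1 was below 0 and not called in all 30 alternatives, from -0.28 to -0.02, the latter with the dentate markers as a covariate, added after the data were seen; 1 to 3 factors of unwanted variation gave -0.15 to -0.17 with unadjusted p of 0.0246 to 0.00519 and adjusted p of 0.997 to 0.328. Leaving out 1 library moved the relative level of Brwd1 between -0.26 and -0.12 and its log2 CPM difference between -0.26 and -0.11 (exact permutation), past the threshold only without B125, at -0.21 and -0.20. DESeq2 called 866 genes in the other 13 cross libraries against euploid, where edgeR called 566, and 88 between the 3 and the 13, where edgeR called 26 and, leaving out each of the 3, 7 to 18. No paired analysis was possible because the titles carry animal identifiers and no replicate numbers shared between groups. With 3 libraries, 2 male and 1 female, differences smaller than the spread between animals were not detectable.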

Other observations

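Genes outside the segments with an unadjusted p under 0.05 between the 3 libraries and euploid were not spread evenly over the chromosomes, a pattern noticed after the values were seen and given with no test. They made up 49 of 779 genes tested on chromosome 17 (6.29%) and 54 of 954 on chromosome 9 (5.66%), beside 503 of 17236 over all chromosomes (2.92%) and 12 of 876 on chromosome 8 (1.37%). Between 20 and 40 Mb of chromosome 17, where the histocompatibility genes lie, they were 32 of 409, with 26 at a lower level in the 3 libraries. Between 100 and 120 Mb of chromosome 9 they were 19 of 222, with 16 at a lower level. EdgeR called none of these genes and DESeq2 called Mmut, H2-D1 and AA388235 on chromosome 17 and Cyp11a1 on chromosome 9. Neighbouring genes are not independent.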
